A study of Mus musculus with 6 samples.

Results

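Nonmuscle myosin II is the actin motor that tenses the cell cortex and the junction belts of epithelia, and 7 of its genes were followed in RNA-seq libraries of the postnatal mouse cochlea. They were chosen by name as the 3 heavy chain genes Myh9, Myh10 and Myh14, the essential light chain gene Myl6, and the regulatory light chain genes Myl9, Myl12a and Myl12b. All 7 were among the 24411 gene symbols in the files, and all 7 were among the 15303 genes that passed the filter on low counts. The measured values did not enter the choice of these genes, but the choice was made with other results of the same libraries known.

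The study asked whether inner hair cells need the calcium action potentials that they generate themselves, before hearing begins, to mature and to keep their hair bundles. Kir2.1-OE mice were heterozygous for Otof rtTA and for tet-o-Kir2.1-IRES-tau-lacZ, so that doxycycline (DOX) induced the inward rectifier potassium channel Kir2.1 in cells that use the Otof promoter, which in this epithelium are hair cells and for the most part inner hair cells. Control mice were littermates heterozygous for Otof rtTA alone, so both groups carried the transactivator. Pregnant and nursing mothers of both groups drank water with DOX at 0.5 mg/ml, which the study supplied from conception on. Offspring were thus exposed through them before birth and as unweaned pups. The pups were C57BL/6N mice of either sex taken at postnatal day 9 (P9). Each of the 3 libraries per group was a pool of 8 cochleae from 4 mice, dissected to the sensory epithelium. The pools hold supporting cells and other tissue beside the hair cells that drive the transgene, and in such bulk samples fewer cells of a type and less RNA per cell cannot be told apart.

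A nonmuscle myosin II molecule is a hexamer of paired heavy chains, paired essential light chains and paired regulatory light chains. The heavy chain carries the motor head and a long coiled-coil tail that packs into bipolar filaments, and its gene names the isoform: Myh9 for IIA, Myh10 for IIB and Myh14 for IIC. The essential light chain stiffens the lever arm, and the regulatory light chain switches the motor on when a threonine and a serine near its start are phosphorylated. In the cochlea, myosin II lies along the apical junctions of hair cells and supporting cells, where IIC forms a periodic belt, and variants of human MYH9 and MYH14 are known causes of hearing loss.

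The genes of this motor differ widely in transcript length, which matters for the values below. In the mm10 build (GENCODE annotation), Myh9 lies at chr15:77760587-77842175 on the minus strand, Myh10 at chr11:68691559-68816632 on the plus strand and Myh14 at chr7:44605803-44670843 on the minus strand, and the curated transcript of each has 41 exons. These transcripts are 7433, 7791 and 6499 bases long, respectively. Myl6 lies at chr10:128490860-128494145 (minus), and its curated transcript has 692 bases, while the longest annotated one, a retained-intron form, has 3040 bases. Myl9 lies at chr2:156775420-156781658 (plus) with a transcript of 1128 bases. Myl12a at chr17:70993656-71002878 and Myl12b at chr17:70973133-70990890 are neighbours on the minus strand of chromosome 17, with transcripts of 1937 and 2143 bases. The annotation holds a further gene model, also named Myl12b, that runs from chr17:70974119 to chr17:71002208 and so overlaps both neighbours. Read counts grow with transcript length, so an equal number of molecules yields more reads from a heavy chain than from a light chain.

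The start of the coding sequence is printed for the 3 regulatory light chains because their likeness can bear on how reads were assigned to them. The first 120 coding bases (GENCODE transcripts, mm10) follow, with capitals at every position where the 3 sequences are not all alike.
Myl9: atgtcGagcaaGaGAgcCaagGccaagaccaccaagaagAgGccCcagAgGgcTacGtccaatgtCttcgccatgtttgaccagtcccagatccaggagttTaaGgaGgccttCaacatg
Myl12a: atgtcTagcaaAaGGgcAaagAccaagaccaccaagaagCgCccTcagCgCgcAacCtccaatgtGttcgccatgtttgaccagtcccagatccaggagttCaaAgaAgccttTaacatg
Myl12b: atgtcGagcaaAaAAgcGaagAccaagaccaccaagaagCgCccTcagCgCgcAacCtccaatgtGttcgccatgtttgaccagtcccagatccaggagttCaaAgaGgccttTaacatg
Within these 120 bases, Myl12b differed from Myl12a at 5 positions and Myl9 differed from Myl12a at 17. Codons 19 and 20, counted from the start codon, encode the regulatory threonine and serine in all 3 genes, as acctcc in Myl12a and Myl12b and as acgtcc in Myl9. Over the whole coding sequence of 516 bases, Myl12a and Myl12b were identical at 498 positions (96.5%), with a longest identical run of 102 bases, and 4 of their 172 residues differed. Myl9 was 85.7% identical to Myl12a and 86.4% identical to Myl12b. The heavy chains are less alike, at 74.7% of aligned coding bases for Myh9 and Myh10, 71.0% for Myh9 and Myh14, and 68.9% for Myh10 and Myh14.

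The heavy chain genes had in common their direction of change, so the 250 bases before each start site are also shown (RefSeq, GRCm38.p6, the assembly called mm10 elsewhere). Capitals mark CCAAT and its reverse complement ATTGG, the core letters of a CCAAT box, a motif picked after these sequences had been seen.
Myh9, chr15:77842176-77842425, minus strand: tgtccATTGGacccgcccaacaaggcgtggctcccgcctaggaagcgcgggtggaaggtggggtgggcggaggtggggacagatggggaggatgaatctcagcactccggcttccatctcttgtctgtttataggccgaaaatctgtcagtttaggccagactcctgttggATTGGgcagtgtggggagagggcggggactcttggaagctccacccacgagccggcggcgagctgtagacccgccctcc
Myh10, chr11:68691665-68691914, plus strand: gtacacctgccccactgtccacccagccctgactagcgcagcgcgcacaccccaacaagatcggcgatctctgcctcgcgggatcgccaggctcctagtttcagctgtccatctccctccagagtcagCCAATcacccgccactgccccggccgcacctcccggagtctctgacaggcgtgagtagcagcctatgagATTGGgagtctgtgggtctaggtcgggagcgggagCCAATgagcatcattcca
Myh14, chr7:44670844-44671093, minus strand: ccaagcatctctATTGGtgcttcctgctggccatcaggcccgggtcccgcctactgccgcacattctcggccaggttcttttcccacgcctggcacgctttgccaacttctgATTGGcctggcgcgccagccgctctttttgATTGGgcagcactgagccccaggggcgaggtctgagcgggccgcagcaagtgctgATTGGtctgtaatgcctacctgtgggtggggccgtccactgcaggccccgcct
Searched on both strands, the motif stood 2 times before Myh9, 3 times before Myh10 and 4 times before Myh14. The windows before Myl9, Myl12a and Myl12b held no match, and those before 2 start sites of Myl6 held 1 and 0. Of 32851 windows of this length before mouse genes, 33.8% held at least 1 match and 10.1% held 2 or more. A CArG box, the site known to be read by serum response factor, was found before Myl9 and before 1 of the Myl6 starts, against 1.5% of all windows. No match was found before the heavy chains. Part of the Myh10 window lies in an exon of a non-coding Myh10 transcript of the GENCODE annotation. The windows before Myl6, Myl12a and Myl12b also lie within the GENCODE span of their own genes. The Myl9 window overlaps the start of its gene, while those of Myh9 and Myh14 lie outside theirs. A match in these letters is a description of the window and not a site shown to be bound.

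The libraries held between 35430940 and 41205047 reads assigned to genes, and their scaling factors lay between 0.984 and 1.01. Kcnj2, which encodes Kir2.1, was at 3612, 3813 and 2213 normalized counts in Kir2.1-OE replicates 1 to 3 and at 236, 228 and 226 in control replicates 1 to 3, so every library matched its label (log2 fold change 3.80, SE 0.20, edgeR adjusted p = 7.04e-05). Hair cell markers, among them Myo7a, Otof and Pou4f3, were read in all 6 libraries. Their summed normalized counts ranged from 32440 to 39840 in Kir2.1-OE and from 21530 to 23760 in control libraries. Calb2 had the largest mean, 16735 in Kir2.1-OE and 10431 in control libraries. Of the 8 markers, 5 were past the thresholds for a higher call given below and 3 were not. Those 3 were Pou4f3, Gfi1 and Slc17a8, with log2 fold changes of 0.05, -0.25 and 0.09. Over all genes, 15.5% were called higher and 5.08% lower in Kir2.1-OE by edgeR's quasi-likelihood test, at an adjusted p under 0.05 and a fold change above 1.5.

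The 3 heavy chain genes were higher in Kir2.1-OE and no light chain gene was called. Myh9, Myh10 and Myh14 rose by 3.02-fold, 2.55-fold and 2.03-fold, respectively. Myl6 and Myl12a were lower by less than the 1.5-fold limit, and Myl9 and Myl12b did not pass the test. The share of all genes called higher, 15.5%, stands beside 3 of the 7 genes here, and as described below transcripts of the heavy chains' length were called far more often.

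Myh9, the IIA heavy chain found in most cells of the body, had 7706, 7400 and 6576 normalized counts in the Kir2.1-OE libraries and 2258, 2829 and 2082 in the controls. The lowest Kir2.1-OE library stood well above the highest control. The means were 7227 ± 585 and 2389 ± 390 (SD, n = 3 each), with a log2 fold change of 1.60 (SE 0.12, edgeR adjusted p = 1.2e-04).

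Myh10, the IIB heavy chain, which is prominent in neural and embryonic tissue, had 5662, 5240 and 5113 normalized counts in Kir2.1-OE and 1942, 2648 and 1675 in control libraries. Control replicate 2 was the highest of the controls and still lay far below the Kir2.1-OE range. The means were 5338 ± 287 and 2089 ± 502 (SD, n = 3 each) and the log2 fold change was 1.35 (SE 0.15, edgeR adjusted p = 1.86e-04).

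Myh14, the IIC heavy chain of epithelial junctions, had 8020, 8225 and 7268 normalized counts in Kir2.1-OE and 3755, 4466 and 3338 in control libraries. The groups again did not overlap, and control replicate 2 was once more the highest control. The means were 7838 ± 504 and 3853 ± 570 (SD, n = 3 each), with a log2 fold change of 1.02 (SE 0.11, edgeR adjusted p = 1.74e-04). For each heavy chain on its own, an exact two-sided permutation test over the 6 libraries gave p = 0.1, the smallest value that 3 libraries against 3 allow. When the test was made against a log2 fold change of 0.6 in place of 0 (edgeR's glmTreat), all 3 still passed, with adjusted p = 0.00175, 0.00464 and 0.0106 for Myh9, Myh10 and Myh14. Over all 15303 genes, glmTreat called 832 higher. Its limit of 0.6 lies near the median log2 fold change of genes as long as the heavy chains, 0.62.

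Myl6, the essential light chain that serves nonmuscle and smooth muscle myosin, had 6563, 7404 and 7449 normalized counts in Kir2.1-OE and 9182, 9664 and 10373 in control libraries. All 3 Kir2.1-OE libraries were below all 3 controls. The means were 7139 ± 499 and 9740 ± 599 (SD, n = 3 each), and the log2 fold change was -0.45 (SE 0.08, edgeR adjusted p = 0.00174), a difference that passed the p threshold and not the fold threshold.

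Among the regulatory light chains, Myl12a had 6226, 7008 and 6623 normalized counts in Kir2.1-OE and 7808, 8430 and 8513 in control libraries. These groups did not overlap either, with Kir2.1-OE below control. The log2 fold change was -0.32 (SE 0.07, edgeR adjusted p = 0.00647), again under the fold threshold.

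Myl12b, the close neighbour of Myl12a, had 4747, 4857 and 4784 normalized counts in Kir2.1-OE and 4695, 5144 and 4695 in control libraries. The Kir2.1-OE values lay inside the control range. The log2 fold change was -0.01 with a 95% confidence interval from -0.17 to 0.14 (edgeR adjusted p = 0.873), so differences of up to about that size in either direction were not detectable with these libraries.

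Myl9, the regulatory light chain that is abundant in smooth muscle, had 2320, 2197 and 2158 normalized counts in Kir2.1-OE and 1562, 2106 and 2206 in control libraries. Control replicate 1 was low, and the other controls stood within or near the Kir2.1-OE range. The log2 fold change was 0.18 with a 95% confidence interval from -0.08 to 0.45 (edgeR adjusted p = 0.22), and without control replicate 1 it was 0.04. At an unadjusted p under 0.05, edgeR, DESeq2 and limma-voom each placed 2 of the 7 genes, Myl6 and Myl12a, lower in Kir2.1-OE, and each called 0 of them at the fold threshold. That count of 2 is a description, with no share over all genes beside it.

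**Figure D1:**
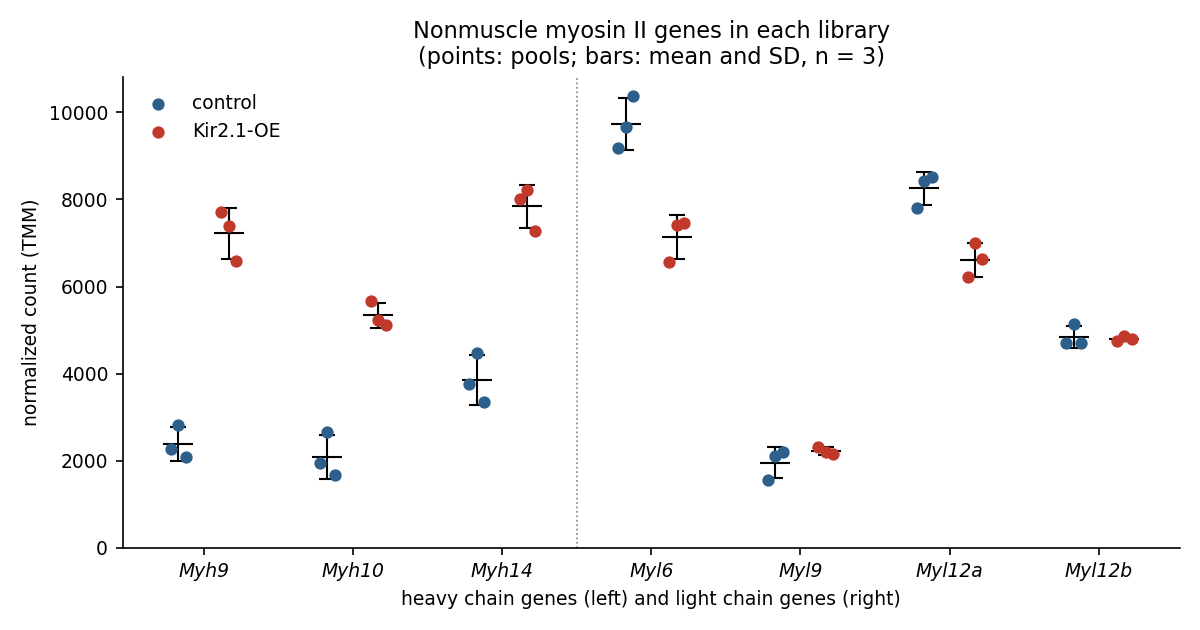
Normalized counts (vertical axis, TMM scaling) of the 7 genes in each library, with control pools in blue, Kir2.1-OE pools in red, and bars for the mean and SD of 3 pools. The red and blue points of Myh9, Myh10 and Myh14 are apart with red above, those of Myl6 and Myl12a are apart with blue above, and those of Myl9 and Myl12b overlap.

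Because the heavy chains rose and no light chain did, the balance of reads between them differed between the groups. Summed heavy chain counts divided by summed light chain counts were 1.08, 0.972 and 0.902 in Kir2.1-OE and 0.342, 0.392 and 0.275 in control libraries, a 2.95-fold difference with no overlap (exact two-sided permutation p = 0.1, the smallest the design allows). The ratio is one of reads from long and short transcripts, and not of protein chains. Within a myosin molecule the chains are present in equal number, while on the scale of counts per kilobase of curated transcript every light chain gene was above every heavy chain gene in both groups.

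The order of levels was therefore taken per kilobase of curated transcript. In control libraries Myl6 was highest at 14100 ± 866 normalized counts per kilobase (SD, n = 3), followed by Myl12a at 4260 ± 199, Myl12b at 2260 ± 121 and Myl9 at 1740 ± 307. The heavy chains came after, with Myh14 at 593 ± 87.8, Myh9 at 321 ± 52.5 and Myh10 at 268 ± 64.5 per kilobase. The ranges of Myh9 and Myh10 overlapped in the controls (280 to 381 and 215 to 340 per kilobase), and the other neighbours in this order did not overlap. In Kir2.1-OE libraries the order was the same and no neighbours overlapped, with Myh14 at 1210 ± 77.6, Myh9 at 972 ± 78.7 and Myh10 at 685 ± 36.9 per kilobase.

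The order within each class, and in part between the classes, depended on the length used. With the median length of all annotated transcripts in place of the curated length, Myh9 (2010 per kilobase in controls) stood above Myh10 (1340) and Myh14 (930). At that length Myh9 also stood above the light chain gene Myl9 in Kir2.1-OE libraries, at 6070 ± 491 against 4420 ± 168 per kilobase (SD, n = 3 each). With the longest annotated transcript, which for Myl6 is the retained-intron form, Myl6 stood at 3200 per kilobase in controls, below Myl12a at 4260. The fold changes given so far do not depend on this choice, since a gene's length is the same in every library. Those fitted with length offsets, given further below, do depend on it.

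The make-up of the heavy chains by isoform differed between the groups. Myh9 held 33.9% ± 0.659 of the heavy chain level per kilobase in Kir2.1-OE and 27.2% ± 0.478 in control libraries (SD, n = 3 each), a difference of 6.71 percentage points with all Kir2.1-OE libraries above. Myh14 held 42.1% ± 0.987 and 50.3% ± 1.26, with all Kir2.1-OE libraries below. Myh10 held 23.9% ± 0.912 and 22.5% ± 1.47, and its groups overlapped.

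The same shift was seen without any length, in ratios of counts. Myh9 over Myh14 was 0.961, 0.9 and 0.905 in Kir2.1-OE and 0.601, 0.633 and 0.624 in control libraries, a 1.49-fold difference. The ratio of Myh10 over Myh14 was 1.27-fold higher in Kir2.1-OE and that of Myh9 over Myh10 was 1.17-fold higher, both with no overlap between groups. Exact two-sided permutation tests gave p = 0.1 for each of these 3 ratios, the smallest possible.

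The regulatory light chains differed in make-up as well. Myl9 held 25.9% ± 1.4 of their level per kilobase in Kir2.1-OE and 20.9% ± 2.43 in control libraries, Myl12a held 44.8% ± 1.67 and 51.6% ± 1.26, and Myl12b held 29.3% ± 0.357 and 27.4% ± 1.62 (SD, n = 3 each). All Kir2.1-OE libraries were above the controls for Myl9 and Myl12b and below them for Myl12a. Myl9 over Myl6, a regulatory against the essential light chain, was 0.353, 0.297 and 0.29 in Kir2.1-OE and 0.17, 0.218 and 0.213 in control libraries, a 1.57-fold difference. Myl9 over Myl12a was 1.43-fold and Myl12b over Myl12a 1.24-fold higher in Kir2.1-OE, each with no overlap and an exact two-sided permutation p = 0.1.

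**Figure D2:**
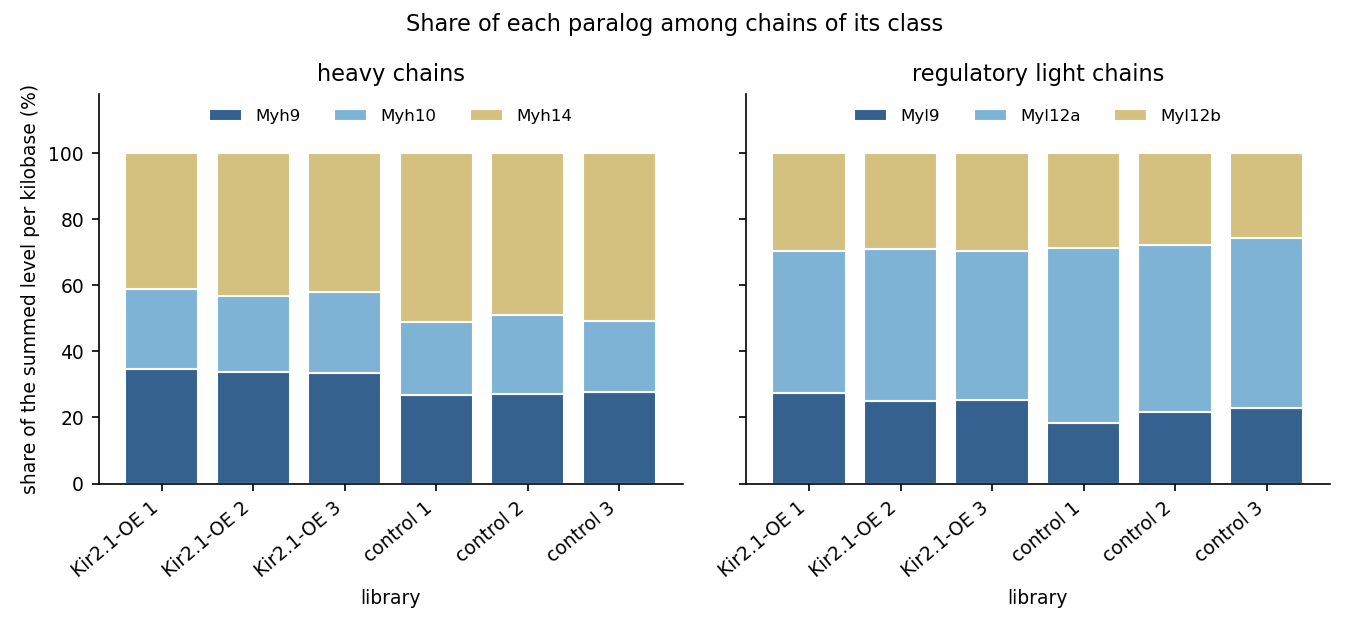
Share (vertical axis, percent) of each heavy chain gene and each regulatory light chain gene in the summed level per kilobase of its class, 1 bar per library. The Myh9 segment is larger and the Myh14 segment smaller in the 3 Kir2.1-OE libraries than in the 3 controls, and on the right the Myl12a segment is smaller in Kir2.1-OE.

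Myl12a and Myl12b had to be read together, since the counts show that reads were divided between them by estimation. Whether the shared reads came from the near-identical coding parts or through the further Myl12b model that overlaps both genes was not tested. Their deposited counts were fractional in all 6 libraries, whereas their sum was a whole number in each, and the other 5 genes had whole counts throughout. Myl12a took 56.7%, 59.1% and 58.1% of the pair's reads in Kir2.1-OE and 62.4%, 62.1% and 64.5% in control libraries. The pair summed to 10973, 11866 and 11407 normalized counts in Kir2.1-OE and to 12504, 13574 and 13208 in control libraries. All Kir2.1-OE sums were below the control sums, with a log2 fold change of -0.20 (SE 0.07, edgeR adjusted p = 0.0411). How far the separate values of these 2 genes depend on the division of shared reads was not tested.

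The direction of change followed transcript length in these libraries far beyond myosin. The median log2 fold change was 0.01 over all 15303 genes tested, but 0.62 over the 690 genes with a curated transcript of 6499 to 7791 bases, the range of the heavy chains (quartiles 0.28 and 0.96). Among those 690 genes, 52.0% were called higher and 0.145% lower. Over the 4204 genes with a curated transcript of 692 to 2143 bases, the range of the light chains, the median log2 fold change was -0.30 (quartiles -0.48 and -0.06), with 2.33% called higher and 11.2% lower.

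Against genes of their length class the 7 genes spread out. Of the 690 long genes, 21 (3.04%) had a higher log2 fold change than Myh9, 52 (7.54%) a higher one than Myh10 and 146 (21.2%) a higher one than Myh14. Of the 4204 short genes, 521 (12.4%) were above Myl9, 922 (21.9%) above Myl12b, 2234 (53.1%) above Myl12a and 2994 (71.2%) above Myl6. Myh9 thus stood in the upper tail of its length class, whereas Myl12a stood near the middle of its class and Myl6 below it. The class of short genes is wide, and Myl6 at 692 bases and Myl12b at 2143 bases lie at its ends. How far the places of the light chains follow length within the class was not tested.

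**Figure D3:**
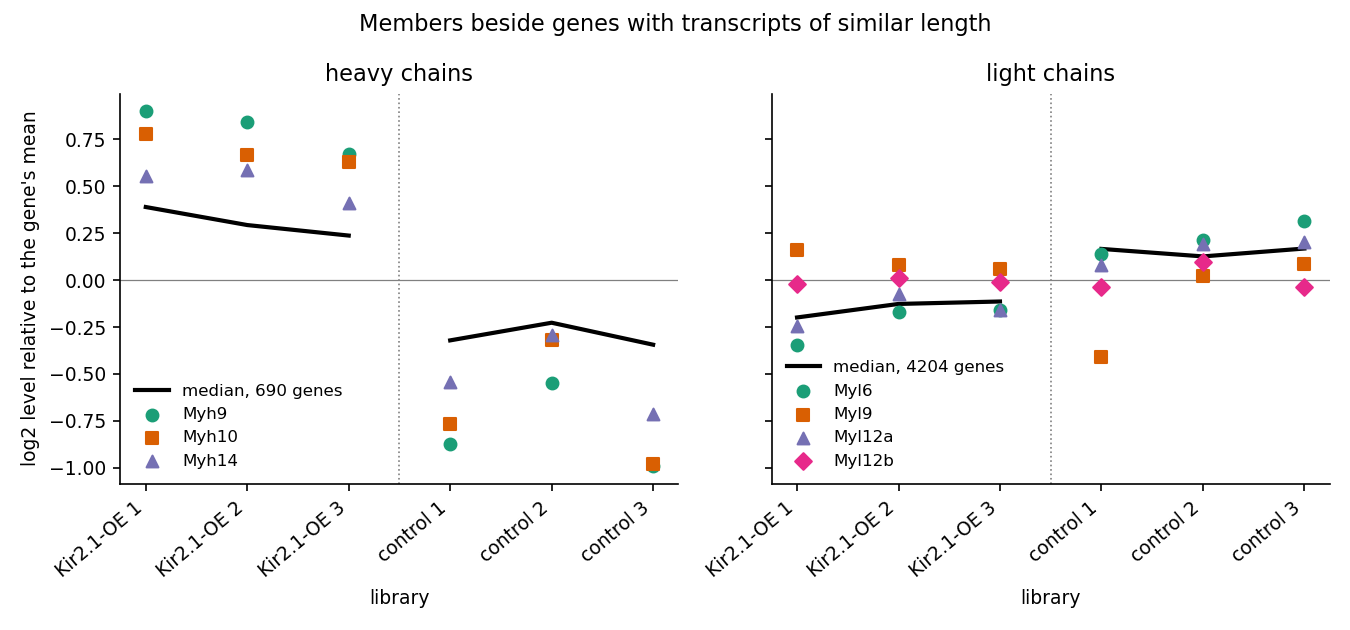
log2 level in each library relative to the gene's mean over the 6 libraries (vertical axis), with black lines for the median of the 690 or 4204 genes of similar transcript length. All 3 heavy chains are above the line in Kir2.1-OE and below it in control libraries, while Myl6 and Myl12a lie near the line of the short genes and Myl9 and Myl12b do not follow it.

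The same spread was seen library by library. Relative to its mean over the 6 libraries, the long-gene median was at 0.389, 0.293 and 0.237 log2 units in Kir2.1-OE replicates 1 to 3 and at -0.321, -0.227 and -0.344 in control replicates 1 to 3. With that median subtracted, Myh9 was at 0.51, 0.547 and 0.433 log2 units in Kir2.1-OE and at -0.551, -0.32 and -0.645 in control libraries. Myh14, treated likewise, was at 0.163, 0.295 and 0.172 in Kir2.1-OE and at -0.222, -0.066 and -0.369 in control libraries, so both kept their direction with no overlap.

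To take the trend out, each library's trend of level on transcript length and GC content was fitted by local regression and entered as an offset in the same edgeR test. With these offsets 6.46% of all genes were called higher and 3.42% lower in Kir2.1-OE. Myh9 had a log2 fold change of 0.73 (95% confidence interval 0.56 to 0.91, edgeR adjusted p = 7.69e-04) and Myh10 of 0.63 (0.38 to 0.89, adjusted p = 0.00374), and both were still called. Myh14 had 0.17 (interval -0.02 to 0.35, edgeR adjusted p = 0.143) and was no longer called.

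The offsets raised the values of the 3 regulatory light chains. Myl9 had a log2 fold change of 0.47 (interval 0.20 to 0.73, edgeR adjusted p = 0.0152), under the fold threshold. Myl12a had -0.12 (adjusted p = 0.23) and Myl12b had 0.13 (adjusted p = 0.174). Myl6 had -0.50 (adjusted p = 0.00245) when its longest annotated transcript was used, but -0.02 (interval -0.19 to 0.14, adjusted p = 0.821) when offsets were built from curated transcripts, so its length model decided the result. With curated transcripts Myh9 and Myh10 were also called, at 0.69 and 0.588, and Myh14 was at 0.14 (adjusted p = 0.206). The value of Myh10 was just above the fold threshold, which is 0.585 in log2 units. The offsets assume that a trend shared by genes of one length is not a difference between the groups, which was not tested.

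**Figure D4:**
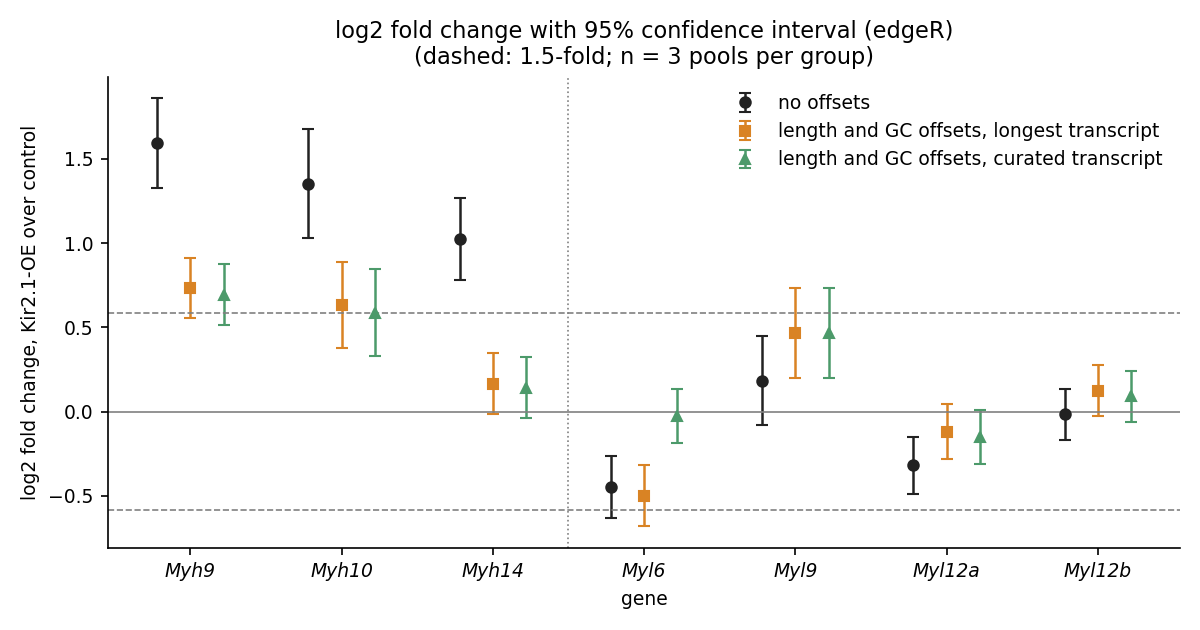
log2 fold change with its 95% confidence interval (vertical axis) for the 7 genes without offsets (black), with length and GC offsets from the longest transcript (orange) and from the curated transcript (green); dashed lines mark 1.5-fold. The offsets lower all 3 heavy chains, leave Myh9 and Myh10 above the upper dashed line and bring Myh14 across into an interval that holds 0.

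Genes that switch, assemble and place myosin II were read next, as a list of 52 genes, all of which passed the filter, and 5 of its roles are described. edgeR called 21 of them higher in Kir2.1-OE and 0 lower, and DESeq2 and limma-voom gave the same counts. These stand beside 15.5% of all genes called higher, and beside 52.0% of genes as long as the heavy chains. At an unadjusted p under 0.05, 12 were lower by edgeR, 13 by DESeq2 and 11 by limma-voom. No share over all genes stands beside the counts at an unadjusted p, so they describe these genes only. The median log2 fold change was 0.39, against 0.01 over all genes tested. With the length and GC offsets edgeR called 9 higher, beside 6.46% of all genes, and 0 lower (9 lower at an unadjusted p under 0.05), and the median was 0.07, against -0.04 over all genes.

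Light chain kinases turn the motor on by phosphorylating the regulatory light chain, and 7 of 11 were called higher, or 4 of 11 with offsets. Beside this count and those of the other roles stand 15.5% of all genes called higher, and 6.46% with offsets. These kinases had a median transcript length of 6440 bases, just under the range of the heavy chains, where 52.0% of genes were called higher. The largest log2 fold changes were 1.53 for Cdc42bpa (SE 0.14, edgeR adjusted p = 1.46e-04) and 1.34 for Rock2 (SE 0.12, adjusted p = 1.39e-04). Rock1 had 2075, 1762 and 1641 normalized counts in Kir2.1-OE and 648, 901 and 789 in control libraries, with a log2 fold change of 1.23. All 3 of these kinases kept a call with offsets, at 1.02 for Cdc42bpa, 1.01 for Rock2 and 1.03 for Rock1. The other 4 called kinases lost it, at -0.02 for Mylk, 0.20 for Cdc42bpb, 0.17 for Cdc42bpg and 0.43 for Cit, while Dapk2, not called before, was called at 0.61. Dapk3 (-0.05, edgeR adjusted p = 0.626) and Pak1 (0.11, adjusted p = 0.241) had the lowest values of this role and did not pass.

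The myosin phosphatase reverses that step, and its genes were divided. Of 7, the targeting subunits Ppp1r12b (log2 fold change 1.504, SE 0.21) and Ppp1r12a (1.05, SE 0.11) were called higher, and both kept the call with offsets, at 0.73 and 1.01. Ppp1r14a (-0.63, edgeR adjusted p = 0.0661) and Ppp1r14b (-0.57, adjusted p = 5.43e-04), which encode inhibitors of the phosphatase, had the lowest values. Ppp1r14b had 2480, 2900 and 2591 normalized counts in Kir2.1-OE and 4079, 4034 and 3687 in control libraries, with no overlap and a difference just under the fold threshold.

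Among 5 genes of filament assembly, Limch1, which promotes myosin IIA activity, and Myo18a, which joins myosin II filaments, were called higher at log2 fold changes of 1.41 (SE 0.17) and 1.36 (SE 0.10). With offsets Limch1 kept the call at 0.99 and Myo18a was at 0.48. S100a4 (-0.01) and Llgl1 (0.06) had the lowest values of this role and did not pass.

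Among 10 actin filament partners, the alpha-actinin genes Actn1 (log2 fold change 0.74, SE 0.11) and Actn4 (0.61, SE 0.12) were called higher. With offsets neither was called, at 0.56 and 0.33, while Actb, which encodes cytoplasmic beta-actin, was called at 0.64. Tpm2 (-0.37, edgeR adjusted p = 0.0114), a tropomyosin gene, and Actg1 (-0.27, adjusted p = 0.0202), which encodes cytoplasmic gamma-actin, had the lowest values.

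Of 9 genes that recruit myosin to cell junctions, with a median transcript length of 6754 bases, 6 were called higher, with the largest log2 fold changes for Shroom4 (1.54, SE 0.19) and Shroom3 (1.40, SE 0.14), members of the Shroom family, which acts at apical junctions. With offsets only Shroom4 of these 9 was called, at 0.93, while Shroom3 was at 0.52. Ajuba (-0.27, edgeR adjusted p = 0.0323) and Lmo7 (0.15, adjusted p = 0.137) had the lowest values.

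**Figure D5:**
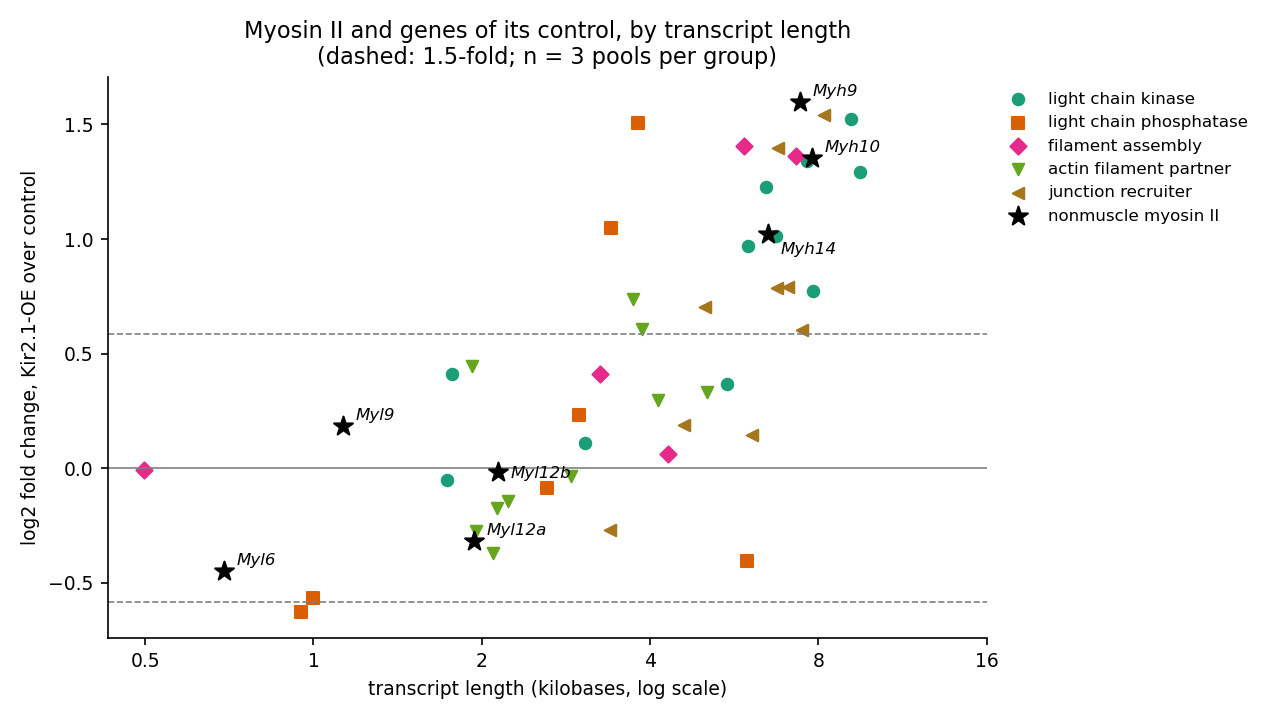
log2 fold change (vertical axis) against curated transcript length (horizontal axis, kilobases, log scale) for the 7 myosin II genes (stars) and the genes of the 5 roles described; dashed lines mark 1.5-fold. Points above the upper dashed line lie mostly to the right, at lengths near those of Myh9, Myh10 and Myh14, and the short light chains lie to the left near or below 0.

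Muscle myosin II genes were near the lower end of what these libraries read. The 11 muscle heavy chain genes together summed to 198.9 to 264.5 normalized counts in Kir2.1-OE and 93.3 to 175.4 in control libraries, far below any nonmuscle heavy chain. Of these genes 6 passed the filter on low counts, and 2 of the 6, Myh11 and Myh7b, were past the thresholds for a higher call. Myh11, the smooth muscle heavy chain, had 37, 23 and 48.7 normalized counts in Kir2.1-OE and 0, 7.27 and 9.16 in control libraries. Myh7b had 38, 26 and 52.9 in Kir2.1-OE and 15, 12.7 and 1.02 in control libraries. Both passed the filter only through the Kir2.1-OE group, where they were high, so their values are given as a description, and neither passed glmTreat (edgeR adjusted p = 0.0564 and 0.142). Of 8 muscle light chain genes 6 passed the filter, and edgeR, DESeq2 and limma-voom each called 0, with 0 at an unadjusted p under 0.05. Myl4 was at 84.5 in Kir2.1-OE and 113 in control libraries (edgeR adjusted p = 0.0901) and Myl6b at 403 and 466 (adjusted p = 0.14).

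Myosin II is made in most cells of the epithelium and of the tissue dissected with it, and markers of several cell types moved with the groups. Smooth muscle is a tissue in which Myl9 is abundant. Smooth muscle and pericyte markers summed to 14620 to 15310 normalized counts in Kir2.1-OE and 9802 to 11270 in control libraries. Of these markers, 3 of 9 tested were called higher, or 2 with offsets. Both counts include Myh11, which passed the filter only through the Kir2.1-OE group, where it was high. As a contractile marker, Myh11 had means of 36.2 in Kir2.1-OE and 5.48 in control libraries. The other contractile and filament markers on that list had means, in the same order, of 63.1 and 47.6 for Acta2, 2.06 and 1.24 for Cnn1, 281 and 230 for Tagln, and 1030 and 1020 for Des. Spiral ganglion neuron markers summed to 27260 to 51970 and 16530 to 23760, with 5 of 8 called higher, and 5 with offsets. Glial markers summed to 374400 to 492100 and 265400 to 339000, with 3 of 7 called higher, and 3 with offsets. Hair cell markers had 5 of 8 called higher, or 2 with offsets. Over all genes 15.5% were called higher, and 6.46% with offsets.

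The remaining lists varied in direction. Cartilage and bone markers summed to 644300 to 775800 in Kir2.1-OE and 287700 to 402100 in control libraries, with 2 of 6 tested markers called higher (1 with offsets), and endothelial markers to 10900 to 11250 and 9119 to 10320, with 3 of 6 called higher (2 with offsets). Col2a1 made up most of the cartilage and bone sum, with means of 574259 and 283892, and was not called with offsets. Of the markers not called, Matn1 was lower in Kir2.1-OE (log2 fold change -0.57), and the groups overlapped for Bglap, Ibsp and Sp7. Erythrocyte markers summed to 10870 to 13810 and 17940 to 44720, with 3 of 6 called lower (1 with offsets), beside 5.08% and 3.42% of all genes. Control replicate 1 was far above the other controls for each of those 3. Hba-a1, for 1, had 29799 normalized counts there, against 10560 and 12429 in control replicates 2 and 3. Supporting cell markers summed to 114500 to 132200 and 91210 to 124900, with 2 of 8 called higher and 1 lower, the latter not called with offsets. Fibrocyte markers (298600 to 368500 and 274100 to 394000) had 1 of 6 called higher with and without offsets, and macrophage markers (6314 to 6746 and 5671 to 5941) had 0 of 6 called in either direction by edgeR, DESeq2 or limma-voom, with 2 higher and 1 lower at an unadjusted p under 0.05 in each. These unadjusted counts, too, have no share over all genes beside them. Skeletal muscle markers were near the floor of these libraries, at sums of 23.98 to 76.98 and 23.41 to 174.6. No listed marker was at 0 in all 6 libraries, and the part of any of these cell types in the myosin values was not tested.

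Genes whose level over the 6 libraries was most like that of a myosin gene were found among 13643 genes by Pearson's r on log2 normalized counts, given as a description because the 2 groups themselves set much of it. Myh9 was nearest to Lats1 (r = 0.9995), Tns1 and Zbtb21, and Myh10 to Akap12 (r = 0.9991), Rlf and Osbp. Myh14 was nearest to Zfhx4 (r = 0.9994), Phf2 and Wdr1. These 9 genes had curated transcripts of 3089 to 13874 bases.

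Among the light chains, Myl6 was nearest to Etfb (r = 0.9986), Ccdc23 and Sssca1, whose curated transcripts have 699 to 893 bases. Myl12a was nearest to Anp32b (r = 0.9962), Btd and Mrps12. Myl9, with its low control replicate 1, was nearest to Ap1g2 (r = 0.9882), Nucb2 and Sec16b, and Myl12b, with little spread of its own, to Ccdc101 (r = 0.9757), Scamp2 and Gm9833.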

How the data were processed

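RNA of pooled cochlear sensory epithelium was measured in 3 Kir2.1-OE and 3 control libraries, grouped by GEO's labels. Per the study's methods, poly(A) libraries were read from both ends and quantified by the authors with Salmon in the nf-core RNA pipeline (mm10); versions and annotation are not given in the sources used here. They deposited expected counts per gene symbol, which need not be whole and are not divided by length or depth; these were rounded.

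edgeR 4.0.16 (R 4.3.3) gave TMM scaling, the filterByExpr filter and a quasi-likelihood test of group, with Benjamini-Hochberg adjustment over 15303 genes. A gene was called at an adjusted p under 0.05 and a fold change above 1.5. Normalized counts are counts scaled by TMM to the mean library. Offsets came from a loess fit (span 0.4) of each library's log2 level on transcript length and GC content. Lengths came from GENCODE vM21 (mm10), in which 23376 of 24411 symbols matched and 687 more matched through another symbol; the curated length is that of a RefSeq-linked transcript. Ratios and single genes were compared by exact permutation over libraries. limma 3.58.1 and DESeq2 1.42.0 gave alternatives, beside other scalings, filters, lengths and each library left out. Depth was 35430940 to 41205047 reads per library.

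In counts simulated for this comparison (15199 genes, 198 changed, with a length trend), edgeR called 1759 unchanged genes without offsets and 14 with them, and recovered 88.9% of the changed genes with them. The simulated trend was a straight line on the log of the longest transcript length, which these offsets also use. Changed genes were drawn without regard to length, and no GC trend was added. The simulation therefore cannot show whether the offsets suit the measured libraries. The genes and lists were chosen with earlier results of these data known. The genes named are the 7 myosin genes, Kcnj2, the 2 highest and 2 lowest of each role of the 52, any of those that the study's text names (1 role and its genes are not reported here), muscle myosin genes with a mean of at least 50 normalized counts, and the 3 genes most like each myosin gene; Myh11, Myh7b, further genes given with offsets, and single cell type markers were named after their values were seen. Pools come from separate mice. Same-numbered pools, by the labels, did not deviate together; the header of control replicate 1's file carries another number than its label.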

Additional observations from a re-analysis of the deposited data

How the results depend on the processing

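Over all alternatives Myh9 and Myh10 were called, and Myh14 in all but the 3 fits with offsets, where its log2 fold change was 0.165, 0.164 (with the replicate block) and 0.141 (curated transcripts, an alternative added after the data had been seen). With offsets from curated transcripts Myh10 passed the fold threshold only narrowly, at 0.588 against 0.585. The length and GC offsets took the number of the 52 genes called higher from 21 to 9, to 8 with the replicate block and to 9 with curated transcripts, and glmTreat took it to 12. Over all genes tested, glmTreat called 832 higher. The median log2 fold change of the heavy chains, 1.35, became 0.635, 0.659 and 0.588 in the same 3 offset fits, and that of the light chains, -0.166, became 0.00381, 0.00357 and 0.0337. With upper quartile scaling the light chain median was -0.255, 2 of the 52 genes were called lower (Ppp1r14a and Ppp1r14b), the median of all genes moved from 0.01 to -0.08, and the calls over all genes were 1897 higher and 1378 lower in place of 2365 and 778. Curated offsets also called 2 lower (Ajuba and Ppp1cb). Myl12b, which passed no test, changed sign with offsets (0.126, 0.128 with the replicate block, 0.0914 with curated transcripts) and without control replicate 2, in a range from -0.049 to 0.0306 with 1 library left out. With median transcript lengths the Myh10 share difference was -1.02 in place of 1.45 percentage points, and that of Myh14 -5.22 in place of -8.15. Beyond the construction of each alternative, the cause of these shifts was not tested.

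With 1 library left out, the heavy chain median ran from 1.22 (without control replicate 3) to 1.56 (without control replicate 2), the light chain median from -0.217 to -0.136, the 52 genes had 19 to 24 called higher and 0 to 1 lower. The call lower was Ppp1r14b without Kir2.1-OE replicate 2 or control replicate 3, and Ppp1r14a without control replicate 1. Myl9 ran from 0.0446 (without control replicate 1) to 0.278. Replicate numbers, as the labels give them, did not pair the pools (correlations of same-numbered deviations -0.225, -0.29 and -0.3); the replicate block left 3 of the 7 genes called higher, and 2214 higher and 724 lower over all genes.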
